A study of Mus musculus with 8 samples.

Results

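The genes described here encode the nuclear part of respiratory complex I and the chaperones that build it. They are the 46 of the 24516 gene symbols in a mouse heart count table that begin with Ndufa, Ndufb, Ndufc, Ndufs or Ndufv. Of these, 36 are subunits of the complex, 8 are Ndufaf assembly factors, which are reported apart from the subunits, and Ndufa4 and Ndufa4l2 are treated separately because Ndufa4 is now placed with complex IV. The filter on low counts passed 45 of the 46. Ndufs5, a subunit of the membrane arm, was listed at 0 counts in all 8 libraries and was not tested. Ndufb1 and the subunits encoded by mitochondrial DNA were not analysed here.

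The hearts came from mice at postnatal day 40, all from the same litter per the labels. Bulk RNA sequencing of total RNA covered 2 wild-type libraries, 3 libraries from mice heterozygous and 3 from mice homozygous for a CRISPR/Cas9 deletion of a conserved enhancer of Actn2, the gene of the Z-disc protein alpha-actinin 2. The sources used here name no strain, sex or number of founder lines. Beyond the shared litter nothing states that each library is a separate animal, so the p-values measure the spread between these samples, which may in part be technical.

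Complex I is the entry point for electrons from NADH into the respiratory chain, and it pumps protons across the inner mitochondrial membrane as it passes them to ubiquinone. Its peripheral arm has an N module, which oxidizes NADH, and a Q module, which reduces ubiquinone; its membrane arm has a proximal and a distal part. The core subunits carry the catalysis, the accessory subunits surround and stabilize them, and assembly factors join the modules and then leave. Heart muscle depends heavily on this enzyme, because it makes most of its ATP by oxidation.

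Levels are given as CPM (counts per 1000000), scaled between libraries by TMM. A fold change is a log2 difference between genotypes with its standard error (SE), from 1 edgeR quasi-likelihood fit of 15075 genes in all 8 libraries. A gene is said to have risen or fallen where the adjusted p was under 0.05. The libraries held 22230090 to 55902737 counts. Actn2 itself was at 2187 and 2703 CPM in wild type, 1546 to 1693 in heterozygous and 1611 to 2115 in homozygous hearts. Actn2 fell by 0.59 on the log2 scale with 1 deleted allele (adjusted p = 0.0193), and its value with both deleted, -0.41, did not pass the test (adjusted p = 0.0771). Cardiomyocyte genes such as Myh6 were abundant in every library, at 22368 to 32397 CPM.

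Wild type 2 stood apart from the other libraries, and every comparison with wild type rests partly on it. Its log2 levels correlated with those of wild type 1 at r = 0.952 across genes, and with those of the 6 deletion libraries at 0.927 to 0.935, while deletion libraries correlated with each other at 0.969 to 0.982. For complex I the gap was one-sided: wild type 2 was above wild type 1 for 33 of 35 subunits, with a median ratio of 1.51, where the median over all genes tested was 0.996. Many fold changes against wild type are therefore also given without wild type 2, in which case wild type is a single library assumed to vary like the others.

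Short DNA motifs that are read by known regulators of respiratory genes were counted in the promoters of these genes, so that the sequence context stands beside the levels below. RefSeq promoter windows (GRCm38.p6, from 250 bases before to 50 bases after a gene's start) were matched by symbol for 40 of the 46 genes, in 42 windows. Of 7-letter motifs searched on both strands, the NRF1 core GCGCATG was in 16.7% of these windows and in 3.91% of all 32851 windows. The YY1 core AAGATGG was in 19% against 6.34%, the ETS core CCGGAAG, read by GABPA, in 14.3% against 8.86%, and the estrogen-related receptor element AAGGTCA in 7.14% against 4.72%. The 32851 windows were neither limited to genes past the filter on low counts nor matched for base composition. The NRF1 core was found in Ndufa6, Ndufa8, Ndufa11, Ndufb6, Ndufb8, Ndufaf4 and Ndufaf5. Ndufb8 fell against wild type and Ndufaf5 did not, and their stretches are not shown. No link between a motif and a change in level was tested. Stretches around 5 of these matches, in the direction of the gene with the motif or its reverse complement in capitals, are shown because 4 come from subunits that fell against wild type, while Ndufaf4 did not fall.
Ndufa11, upstream of the start, chr17:56717691-56717719, plus strand: acctgcactgcGCGCATGcgcgcacgcct
Ndufa6, upstream of the start, chr15:82354356-82354384, minus strand: ccgcggtagagCATGCGCattgcagagcc
Ndufa8, upstream of the start, chr2:36049339-36049367, minus strand: cgcttgcgcgtcgctggagacgCATGCGC
Ndufb6, upstream of the start, chr4:40279481-40279509, minus strand: gagagggctttGCGCATGagcagagcctg
Ndufaf4, upstream of the start, chr4:24897959-24897987, plus strand: cccagatgtctGCGCATGcgcctgtgcgg

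The YY1 core was found in 8 genes, Ndufa3, Ndufa9, Ndufb8, Ndufc1, Ndufs4, Ndufs6, Ndufs7 and Ndufaf8. In all 8 it read in the direction of the gene and began 10 to 38 bases after the start, inside the transcribed sequence. Stretches from 3 of them show the shared core.
Ndufs7, after the start, chr10:80249462-80249490, plus strand: aggccgaggccAAGATGGcggcgctggcg
Ndufs6, after the start, chr13:73328433-73328460, minus strand: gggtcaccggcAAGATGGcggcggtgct
Ndufc1, after the start, chr3:51408916-51408944, minus strand: gcctgcggaacAAGATGGcgccgtccgta
Such a match is a description of these letters only, and Ndufs1 had no window in the table.

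In homozygous hearts most complex I subunits were lower than in wild type, and 1 core subunit, Ndufs1, was higher. Of the 35 subunits tested, 18 fell and 1 rose, and 33 had a fold change below 0. Their median log2 fold change was -0.61, against -0.03 over all 15075 genes. Of all genes tested, 12.4% fell and 15.3% rose (27.7% in either direction). The homozygous libraries lay wholly below both wild-type libraries for 28 subunits and wholly above for 1, where 27.2% and 27.6% of all genes did so.

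Heterozygous hearts gave nearly the same counts against the same wild-type libraries. There 19 of 35 subunits fell and Ndufs1 rose, with a median of -0.63, where 12.8% of all genes fell and 15.2% rose (28% in either direction). The 18 subunits that fell in homozygous hearts all fell in heterozygous hearts too, and Ndufa1, a small membrane arm subunit, was added. Because both comparisons share the wild-type libraries, this overlap is not independent evidence. The heterozygous libraries lay wholly below wild type for 21 subunits and wholly above for 1, where 25.6% and 25.7% of all genes did so.

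The summed level of all subunits shows how much of this rests on wild type 2. It was 15878 CPM in wild type 1 and 24110 CPM (24109.8) in wild type 2. Heterozygous libraries held 14607, 12225 and 12795 CPM, and homozygous libraries 13397, 13391 and 14207 CPM. All 6 deletion libraries were thus below wild type 1, but by less than wild type 1 was below wild type 2. Gene by gene, wild type 1 was above all 6 deletion libraries for 20 of 35 subunits, within their range for 14 and below for 1. Wild type 2 was above all 6 for 31 subunits, within for 3 and below for 1. Of all genes tested, 29.3% had wild type 1 and 35% had wild type 2 above all 6.

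**Figure D1:**
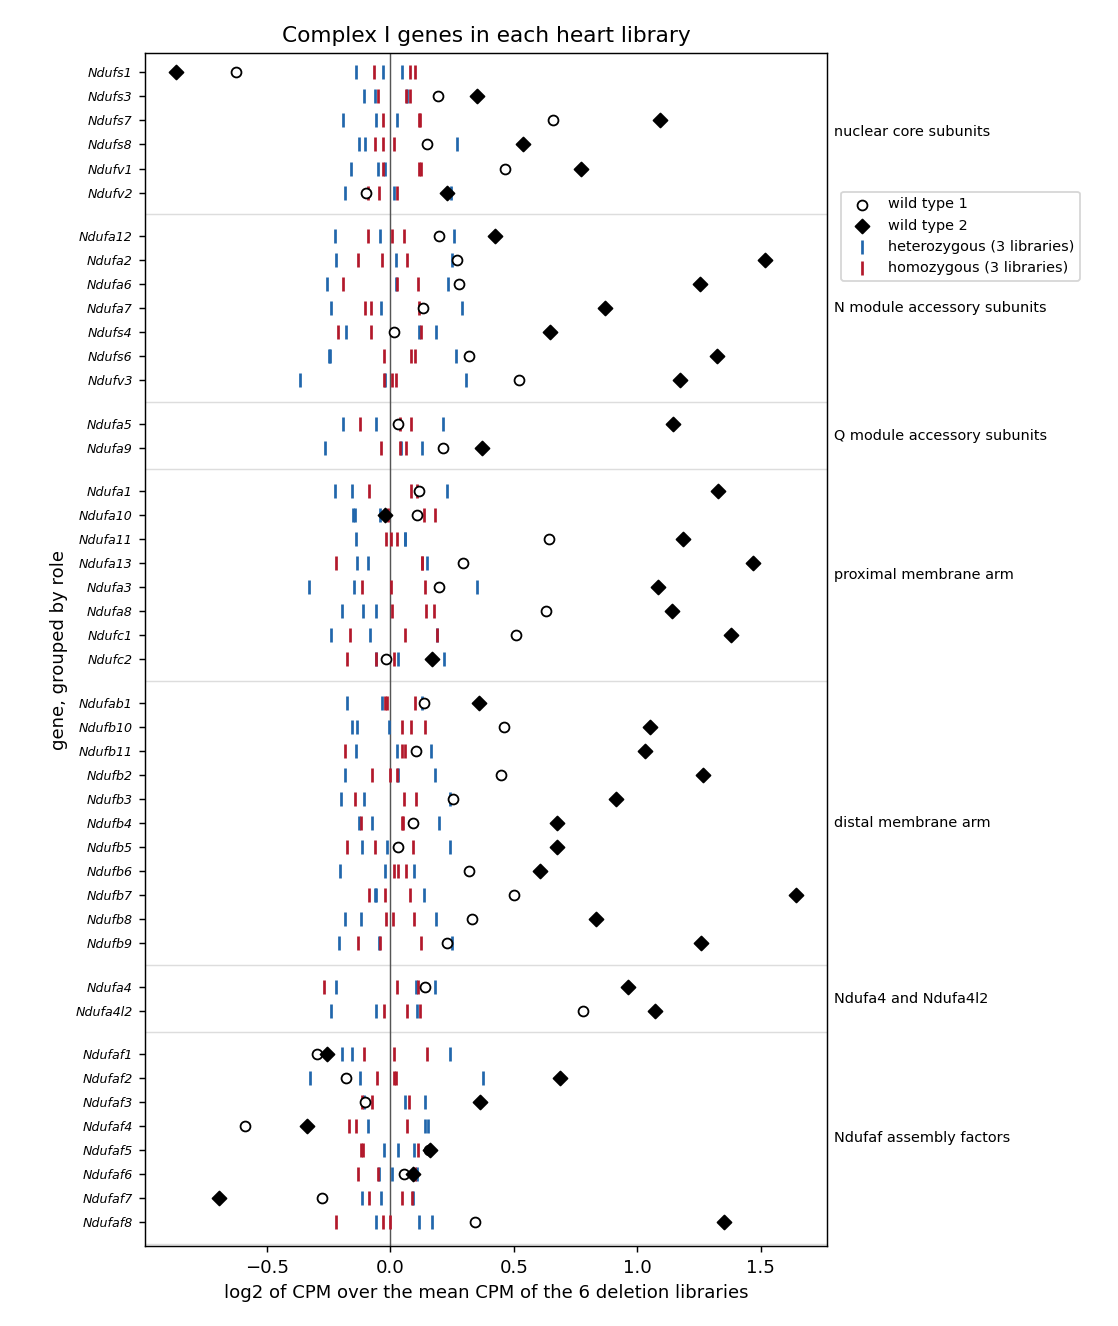
Levels of the complex I genes reported singly in every library, as log2 of a gene's CPM over its mean CPM in the 6 deletion libraries, with genes in rows grouped by role; open circles are wild type 1, filled diamonds wild type 2, and blue and red ticks the 3 heterozygous and 3 homozygous libraries. For most subunits wild type 2 lies far to the right, and wild type 1 at the right edge of the ticks or a little beyond. Ndufs1, Ndufaf1, Ndufaf4 and Ndufaf7 instead have both wild-type libraries to the left.

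Without wild type 2, 4 subunits still fell in homozygous hearts (Ndufa8, Ndufa11, Ndufb7 and Ndufs7) and Ndufs1 still rose, with a median of -0.21, where 3.58% of all genes fell and 10.1% rose (13.7% in either direction). In heterozygous hearts 7 fell (among them these 4, Ndufb10 and Ndufv1) and Ndufs1 rose, with a median of -0.21, where 4.62% of all genes fell and 10.5% rose (15.1% in either direction). Without wild type 1, in contrast, 27 subunits fell in homozygous hearts (median -0.90), where 16.6% of all genes fell and 19.8% rose (36.4% in either direction). In heterozygous hearts 28 fell (median -0.92), where 16.7% of all genes fell and 19.2% rose (35.8% in either direction). Leaving out homozygous 1, 2 or 3 gave 10, 9 and 10 subunits called in homozygous hearts, in place of 19, and 18.8%, 19.4% and 17.1% of all genes, in place of 27.7%. Leaving out heterozygous 2 or heterozygous 3 gave 11 called in heterozygous hearts, in place of 20, and 19.2% and 19.7% of all genes, in place of 28%; without heterozygous 1 it was 21 subunits and 24.9% of all genes. With only the groups compared in the fit, 11 subunits were called in either genotype, with 22.6% of all genes in homozygous and 18% in heterozygous hearts.

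The core subunits did not move as a block: Ndufs1 rose, while Ndufs7 and Ndufv1 fell, in either genotype. Ndufs1, the largest core subunit, carries iron-sulfur clusters of the N module and lies at chr1:63143596-63176833 on the minus strand. It was at 534 and 452 CPM in wild type, 806, 851 and 747 CPM in heterozygous and 869, 787 and 882 CPM in homozygous hearts. Both wild-type libraries were below all 6 deletion libraries, and wild type 2 was the lowest of the 8, the reverse of its place for most subunits. The log2 fold change was 0.78 in homozygous (SE 0.14, adjusted p = 0.00339) and 0.70 in heterozygous hearts (SE 0.14, adjusted p = 0.0051), and without wild type 2 it was 0.70 and 0.62. Its exons share 489 bases with Ino80dos and 9 with Eef1b2 on the other strand, and the sources used here do not say whether counting used strand.

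Ndufs7, which carries the last iron-sulfur cluster before ubiquinone, was at 634 and 856 CPM in wild type, 385, 352 and 409 CPM in heterozygous and 435, 393 and 436 CPM in homozygous hearts, so that every deletion library was well below both wild-type libraries. It fell by 0.82 on the log2 scale in homozygous hearts (SE 0.15, adjusted p = 0.00389) and by 0.96 in heterozygous hearts (SE 0.15, adjusted p = 0.00167). Without wild type 2 the values were -0.56 and -0.70, both with an adjusted p under 0.05 (0.0228 and 0.00693).

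Ndufv1 holds the flavin that takes electrons from NADH, and it was at 979 and 1212 CPM in wild type, 636, 699 and 686 CPM in heterozygous and 769, 696 and 774 CPM in homozygous hearts. Again no deletion library reached wild type. It fell by 0.55 in homozygous hearts (SE 0.14, adjusted p = 0.0147) and by 0.70 in heterozygous hearts (SE 0.14, adjusted p = 0.00492); without wild type 2 the homozygous value was -0.36 (adjusted p = 0.111) and the heterozygous value -0.51 (adjusted p = 0.0285). Its neighbour Ndufv2, an iron-sulfur subunit, was at 592 and 742 CPM in wild type, 752, 558 and 639.9 CPM in heterozygous and 595, 613 and 646 CPM in homozygous hearts. These groups overlapped, and the log2 fold changes were -0.11 and -0.04 (SE 0.16, adjusted p = 0.647 and 0.885).

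Ndufs3 and Ndufs8 complete the Q module core. Ndufs3 was at 374 and 417 CPM in wild type, 343, 313 and 303 CPM in heterozygous and 341, 315 and 345 CPM in homozygous hearts, and Ndufs8 at 311 and 407, then 338, 257 and 262, then 275, 269 and 284 CPM. For Ndufs3 no deletion library reached wild type, while for Ndufs8 heterozygous 1 lay between the wild-type libraries. Neither passed the test. Ndufs3 had log2 fold changes of -0.24 in homozygous (SE 0.13, adjusted p = 0.176) and -0.31 in heterozygous hearts (SE 0.13, adjusted p = 0.0932), and Ndufs8 of -0.38 (SE 0.16, adjusted p = 0.107) and -0.33 (SE 0.16, adjusted p = 0.156). The values without wild type 2 were -0.13 and -0.20 for Ndufs3 and -0.14 and -0.09 for Ndufs8.

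Among the 7 accessory subunits of the N module, 4 fell in either genotype, where 12.4% and 12.8% of all genes fell. These were Ndufa2, Ndufa6, Ndufs6 and Ndufv3, and none of the 7 rose. The median was -0.85 in homozygous and -0.83 in heterozygous hearts, but -0.23 and -0.21 without wild type 2. Ndufv3, a small subunit at the NADH-oxidizing tip, was at 373 and 587 CPM in wild type, 321, 256 and 202 CPM in heterozygous and 264, 256 and 261 CPM in homozygous hearts. Both genotypes were below wild type, and it fell by 0.88 in homozygous (SE 0.21, adjusted p = 0.013) and by 0.89 in heterozygous hearts (SE 0.22, adjusted p = 0.0124); without wild type 2 both values were -0.49 (adjusted p = 0.144 and 0.132).

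Ndufa2, a subunit with a thioredoxin-like fold, was at 321 and 761 CPM in wild type, 316, 228 and 271 CPM in heterozygous and 243, 260.2 and 279 CPM in homozygous hearts. Here wild type 1 lay just above heterozygous 1, and the size of the change came from wild type 2. The log2 fold change was -1.05 in homozygous (SE 0.29, adjusted p = 0.025) and -0.99 in heterozygous hearts (SE 0.29, adjusted p = 0.0313), and without wild type 2 it was -0.27 (adjusted p = 0.351) and -0.21 (adjusted p = 0.465). Ndufa12, which sits between the N and Q modules, was at 245 and 287 CPM in wild type, 255, 183 and 207 CPM in heterozygous and 214, 222 and 200.4 CPM in homozygous hearts. Its log2 fold changes of -0.32 and -0.31 (SE 0.16) did not pass the test (adjusted p = 0.145 and 0.168), and without wild type 2 they were -0.17 and -0.16.

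Neither accessory subunit of the Q module passed the test. Ndufa5 was at 479.7 and 1039 CPM in wild type, 545, 411 and 451 CPM in heterozygous and 431, 482 and 497 CPM in homozygous hearts. Wild type 1 lay inside both deletion groups, and wild type 2 was far above every other library. Its log2 fold changes were -0.69 and -0.70 (SE 0.27, adjusted p = 0.0791 and 0.0772), and 0.00 and -0.00 without wild type 2. Ndufa9, which binds NADPH, was at 572 and 636 CPM in wild type, 538, 507 and 410.1 CPM in heterozygous and 506, 479 and 514 CPM in homozygous hearts. All 6 deletion libraries were below wild type, with log2 fold changes of -0.27 and -0.32 (SE 0.15, adjusted p = 0.188 and 0.13), and of -0.16 and -0.21 without wild type 2.

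In the proximal membrane arm 4 of 8 subunits fell in homozygous hearts (Ndufa8, Ndufa11, Ndufa13 and Ndufc1), where 12.4% of all genes fell. In heterozygous hearts 5 fell (these with Ndufa1), where 12.8% of all genes fell. The medians of this arm were -0.80 and -0.91. Without wild type 2 these medians were -0.20 and -0.24. Ndufa11, a membrane subunit where the arms meet, lies at chr17:56717767-56722141 on the plus strand. It was at 406 and 590.2 CPM in wild type, 270.4, 270.3 and 236 CPM in heterozygous and 265, 256 and 260.2 CPM in homozygous hearts. The deletion libraries lay close together and far below wild type 1. It fell by 0.94 in both genotypes (SE 0.16, adjusted p = 0.00271 in homozygous and 0.00236 in heterozygous hearts), and by 0.61 and 0.62 without wild type 2 (adjusted p = 0.0121 and 0.0101).

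Ndufa8, a cysteine-rich subunit on the intermembrane side, was at 479 and 681 CPM in wild type, 297, 269 and 286 CPM in heterozygous and 349, 309.9 and 342 CPM in homozygous hearts. The 3 genotypes did not overlap and the heterozygous libraries were lowest. The log2 fold change of Ndufa8 was -0.80 in homozygous (SE 0.16, adjusted p = 0.00511) and -1.03 in heterozygous hearts (SE 0.16, adjusted p = 0.0014), and without wild type 2 it was -0.49 and -0.72 (adjusted p = 0.0336 and 0.00471). Ndufa10, a subunit with a kinase-like fold, gave the weakest evidence of a change in this arm in homozygous hearts. It was at 532 and 486 CPM in wild type, 446, 444 and 479 CPM in heterozygous and 559, 489 and 541 CPM in homozygous hearts, with log2 fold changes of 0.06 (SE 0.13, adjusted p = 0.77) in homozygous and -0.16 (SE 0.13, adjusted p = 0.385) in heterozygous hearts.

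Of 11 subunits of the distal membrane arm, 7 fell in either genotype, where 12.4% and 12.8% of all genes fell. These were Ndufb2, Ndufb3, Ndufb6, Ndufb7, Ndufb8, Ndufb9 and Ndufb10. None of the 11 rose, and their medians were -0.61 and -0.63. When wild type 2 was left out, the medians were -0.21 in homozygous and -0.23 in heterozygous hearts. Ndufb7 is another cysteine-rich subunit of the intermembrane side. It was at 421 and 929.8 CPM in wild type, 327, 285 and 286 CPM in heterozygous and 293, 279.7 and 315 CPM in homozygous hearts. Both wild-type libraries were above all others, but they differed from each other more than wild type 1 differed from the deletion libraries. It fell by 1.19 in homozygous (SE 0.26, adjusted p = 0.00826) and by 1.18 in heterozygous hearts (SE 0.26, adjusted p = 0.00851), and by 0.48 and 0.46 without wild type 2 (adjusted p = 0.0423 and 0.0449).

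Ndufb2, a small subunit of this arm, was at 289 and 510.2 CPM in wild type, 240.2, 187 and 217 CPM in heterozygous and 201, 216 and 211 CPM in homozygous hearts. All deletion libraries were below wild type, and it fell by 0.93 in homozygous (SE 0.21, adjusted p = 0.00868) and by 0.90 in heterozygous hearts (SE 0.21, adjusted p = 0.00992); without wild type 2 the values were -0.43 and -0.40 (adjusted p = 0.0805 and 0.0972). Its exons share 145 bases with the readthrough model Gm42420 on the same strand and 146 with Braf on the other, so its count may be incomplete or mixed. Ndufab1, the mitochondrial acyl carrier protein, also serves fatty acid and lipoate synthesis. It was at 494 and 577 CPM in wild type, 491, 398 and 439 CPM in heterozygous and 442, 446 and 481 CPM in homozygous hearts. Here the heterozygous 1 library came close to wild type 1, and the log2 fold changes of -0.23 and -0.27 (SE 0.14) did not pass the test (adjusted p = 0.242 and 0.168), and without wild type 2 they were -0.08 and -0.13.

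**Figure D2:**
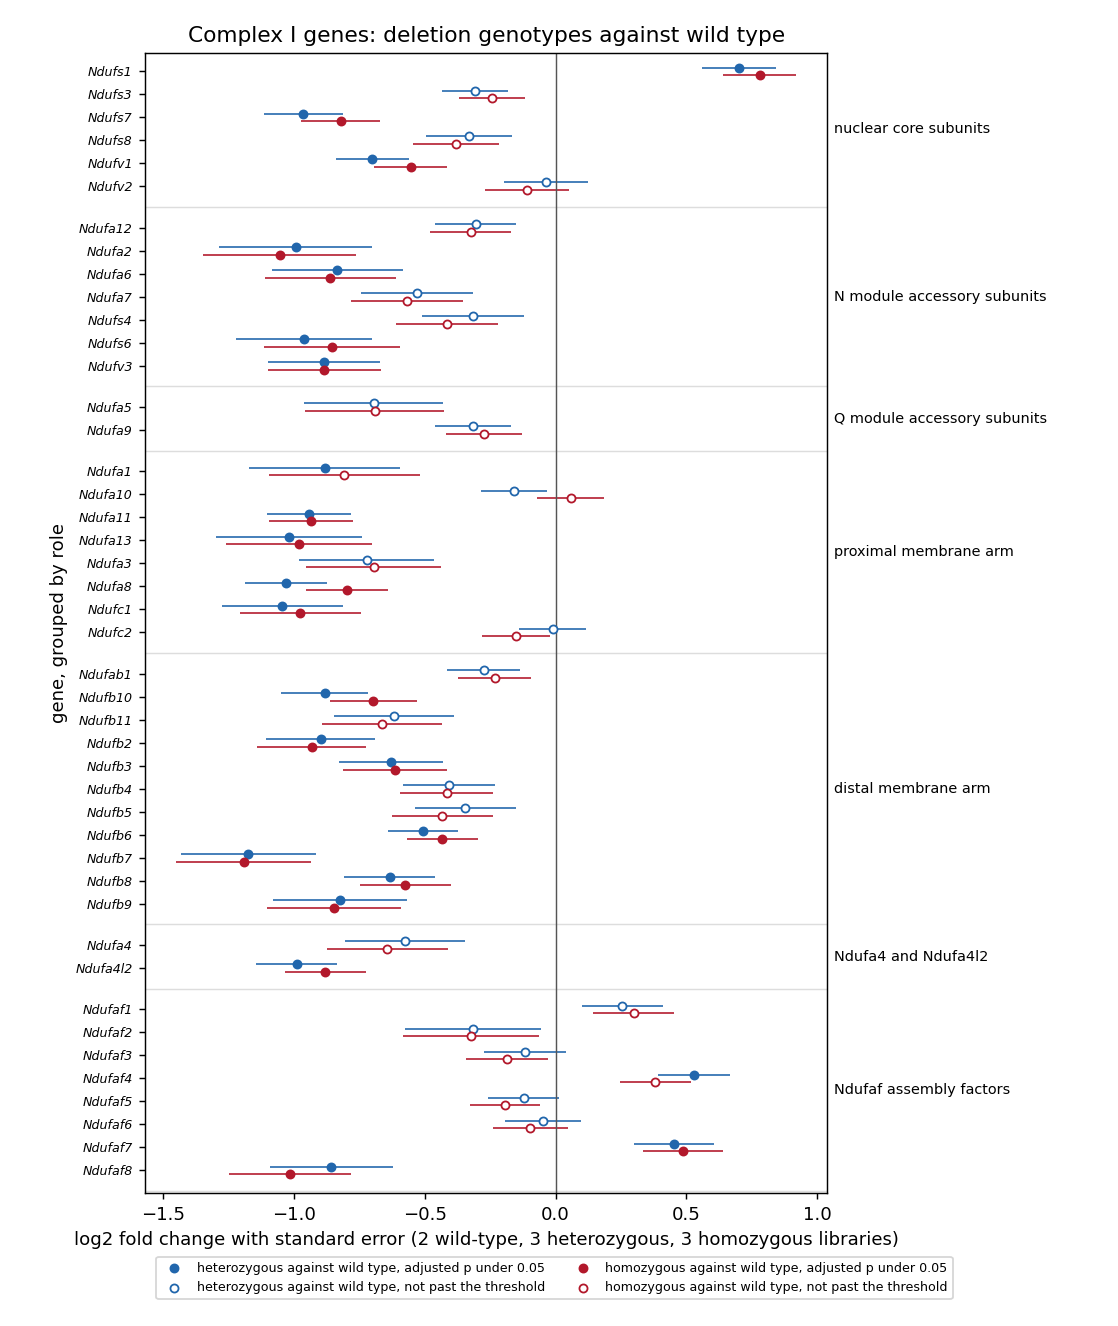
Log2 fold changes of the complex I genes reported singly in heterozygous (blue) and homozygous (red) hearts against the same 2 wild-type libraries, with bars of 1 SE and genes grouped by role; filled points have an adjusted p under 0.05. Ndufs1 is the only filled subunit to the right of 0. Among the Ndufaf genes with a filled point, Ndufaf8 lies to the left and Ndufaf4 and Ndufaf7 to the right.

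Ndufa4 was the most abundant of all 46 genes per kilobase of transcript. It was at 991 and 1753 CPM in wild type, 1021, 773 and 967 CPM in heterozygous and 747, 917 and 972 CPM in homozygous hearts. Its log2 fold changes of -0.64 and -0.58 (SE 0.23) did not pass the test (adjusted p = 0.0604 and 0.0862), and without wild type 2 they were -0.14 and -0.08. Its paralogue Ndufa4l2, a hypoxia-responsive gene known from pericytes and smooth muscle, had a wild-type mean of 34.3 CPM per kilobase of its median-length transcript, against 3034 CPM for Ndufa4.

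Ndufa4l2 was at 28.8 and 35.3 CPM in wild type, 14.2, 16.1 and 18.1 CPM in heterozygous and 16.5, 18.2 and 17.6 CPM in homozygous hearts. The wild-type libraries were close together here, and no deletion library came near them. It fell by 0.88 in homozygous (SE 0.16, adjusted p = 0.00311) and by 0.99 in heterozygous hearts (SE 0.16, adjusted p = 0.00167), and by 0.69 and 0.81 without wild type 2 (adjusted p = 0.0252 and 0.0116). Of 6 markers of smooth muscle and pericytes, all detected, 3 also fell in homozygous and 5 in heterozygous hearts. The shares of all genes that fell were 12.4% and 12.8%. The 6 markers summed to 1148 and 1464 CPM in wild type, 1027 to 1315 CPM in heterozygous and 1007 to 1137 CPM in homozygous hearts. Their part in the fall of Ndufa4l2 was not tested, and in bulk tissue fewer cells of a type and less RNA per cell cannot be told apart.

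The Ndufaf assembly factors showed no shared direction. Of 8, Ndufaf8 fell and Ndufaf7 rose in homozygous hearts, where 27.7% of all genes were called in either direction. In heterozygous hearts, where 28% were called, Ndufaf8 fell and Ndufaf4 and Ndufaf7 rose. The medians of the 8 were -0.14 and -0.08. Per kilobase of each gene's median-length transcript, their wild-type means lay between 13.8 CPM for Ndufaf7 and 154 CPM for Ndufaf8, below all 35 subunits tested, which lay between 190.2 CPM for Ndufs1 and 2411 CPM for Ndufa5. Per kilobase of the principal transcript the Ndufaf genes lay between 13.8 CPM for Ndufaf7 and 84.2 CPM for Ndufaf8, and the subunits between 91.4 CPM for Ndufb2 and 1801 CPM for Ndufb9. Summed over the 8 genes the level was 261 and 337 CPM in wild type, 296 to 318 CPM in heterozygous and 279 to 299.6 CPM in homozygous hearts, so that every deletion library lay between the wild-type libraries.

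Ndufaf3 and Ndufaf4 act together early, on the Q module. Ndufaf4 was at 64.6 and 76.9 CPM in wild type, 107, 91.2 and 108 CPM in heterozygous and 88.2, 102 and 86.5 CPM in homozygous hearts, with both wild-type libraries below all others. It rose by 0.53 in heterozygous hearts (SE 0.14, adjusted p = 0.0167), while the homozygous value of 0.38 (SE 0.14) had an adjusted p of 0.06. Leaving out wild type 2 gave 0.69 in heterozygous and 0.55 in homozygous hearts (adjusted p = 0.0129 and 0.0375). Ndufaf3 was at 33.4 and 46.1 CPM in wild type, 39.5, 33.2 and 37.3 CPM in heterozygous and 33.1, 37.8 and 34.0 CPM in homozygous hearts. These groups overlapped, with log2 fold changes of -0.18 and -0.12 (SE 0.16, adjusted p = 0.409 and 0.617).

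Ndufaf7 and the pair of Ndufaf5 and Ndufaf8 modify core subunits as they are assembled: Ndufaf7 is a methyltransferase, and Ndufaf5, with Ndufaf8 as its partner, hydroxylates Ndufs7. Ndufaf7 was at 27.7 and 20.7 CPM in wild type, 32.6, 35.8 and 31.0 CPM in heterozygous and 34.6, 31.5 and 35.6 CPM in homozygous hearts. All 6 deletion libraries were above wild type, and it rose by 0.49 in homozygous (SE 0.15, adjusted p = 0.0366) and 0.45 in heterozygous hearts (SE 0.15, adjusted p = 0.0484), but without wild type 2 the values were 0.33 and 0.29 (adjusted p = 0.195 and 0.244). Ndufaf8 was at 43.6 and 87.9 CPM in wild type, 38.7, 33.0 and 37.3 CPM in heterozygous and 29.6, 34.3 and 33.7 CPM in homozygous hearts. It fell by 1.02 in homozygous (SE 0.23, adjusted p = 0.0109) and by 0.86 in heterozygous hearts (SE 0.24, adjusted p = 0.0222), and without wild type 2 the values were -0.39 and -0.23 (adjusted p = 0.116 and 0.347). Ndufaf5 was at 25.9 and 26.0 CPM in wild type, 24.9, 22.9 and 23.8 CPM in heterozygous and 21.4, 21.5 and 25.1 CPM in homozygous hearts, with log2 fold changes of -0.19 and -0.12 (SE 0.13, adjusted p = 0.311 and 0.533).

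The other Ndufaf genes did not pass the test. Ndufaf1, which works on the membrane arm with Acad9, Ecsit and Tmem126b, was at 31.6 and 32.5 CPM in wild type, 33.9, 45.9 and 34.9 CPM in heterozygous and 39.2, 36.0 and 43.1 CPM in homozygous hearts. Its wild-type libraries were the lowest, with log2 fold changes of 0.30 and 0.26 (SE 0.16, adjusted p = 0.181 and 0.25). Ndufaf2, a chaperone for the joining of the N module, was at 14.8 and 27.0 CPM in wild type, 21.7, 15.4 and 13.4 CPM in heterozygous and 16.1, 16.9 and 17.0 CPM in homozygous hearts. Ndufaf6, needed for the mitochondrially encoded ND1, was at 19.0 and 19.5 CPM in wild type, 19.7, 18.4 and 17.8 CPM in heterozygous and 16.7, 19.6 and 17.7 CPM in homozygous hearts. Both groups of values overlapped between genotypes: the log2 fold changes were -0.32 in each deletion genotype for Ndufaf2 (SE 0.26, adjusted p = 0.383 and 0.399) and -0.10 and -0.05 for Ndufaf6 (SE 0.14, adjusted p = 0.651 and 0.832).

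Assembly factors outside the Ndufaf name were given by 9 genes. In either genotype 1 fell and 2 rose, with a median of 0.27 in homozygous and 0.29 in heterozygous hearts. Among all genes, 12.4% fell and 15.3% rose in homozygous hearts, and 12.8% fell and 15.2% rose in heterozygous hearts. Tmem126b, the partner of Ndufaf1, was at 13.1 and 10.4 CPM in wild type, 25.3, 23.2 and 23.0 CPM in heterozygous and 21.1, 21.8 and 26.4 CPM in homozygous hearts. Every deletion library was well above wild type, and it rose by 0.97 in homozygous (SE 0.17, adjusted p = 0.00277) and 1.02 in heterozygous hearts (SE 0.17, adjusted p = 0.00208), and by 0.85 and 0.89 without wild type 2 (adjusted p = 0.0129 and 0.00955). Tmem70, which assists complex I and ATP synthase, rose by 0.40 in both genotypes (SE 0.11, adjusted p = 0.0238 and 0.0218), while without wild type 2 both values were 0.42 and did not pass the test (adjusted p = 0.0566 and 0.0512). Ecsit, of the same membrane arm group as Tmem126b, fell by 0.87 in homozygous (SE 0.16, adjusted p = 0.00429) and by 0.98 in heterozygous hearts (SE 0.16, adjusted p = 0.00228). Ecsit without wild type 2 was at -0.47 and -0.58 (adjusted p = 0.0239 and 0.00819), and after the gene property correction described below at -0.40 and -0.51 (adjusted p = 0.0889 and 0.04).

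Homozygous and heterozygous hearts were then compared with each other, which asks whether the number of deleted alleles mattered and does not use wild type for the levels. No subunit and no Ndufaf gene passed the edgeR test, and neither did any other of the 15075 genes (0%). At an unadjusted p under 0.05 there were 411 genes, none of them a subunit or Ndufaf gene. The DESeq2 test called 3 genes and limma-voom 0, and no subunit or Ndufaf gene was among them. After the gene property correction described below, 1 gene that is neither fell (0.00706% of those tested). The log2 fold changes of the 35 subunits lay between -0.14 and 0.23, with SEs of 0.11 to 0.27, with a median of 0.02, against -0.00 over all genes tested.

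Ndufa8 and Ndufa10 were among the members with the smallest p-values in this comparison. With the library values given above, the log2 fold change of homozygous against heterozygous hearts was 0.23 for Ndufa8 and 0.22 for Ndufa10, each with an adjusted p of 0.9996. The homozygous libraries lay wholly above the heterozygous ones for 4 of 35 subunits, among them these genes and Ndufb10, where 6.19% of all genes did so, and for none wholly below, where 5.15% did so. Differences as small as these SEs were not detectable with 3 libraries a group.

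Complex I genes have short transcripts, and across all genes the fold changes against wild type varied with transcript length and base composition. The median principal transcript of the 36 subunits was 940 nt long with a GC content of 52.2%, against 3015 nt and 50.6% for all genes tested with known properties. Across the 45 complex I genes, length and homozygous log2 fold change had a Spearman rho of 0.51, and GC content and fold change of -0.50. Across all 14171 genes with these properties the values were 0.42 and -0.44. Without wild type 2 they were 0.30 and -0.57 across the complex I genes and 0.35 and -0.45 across the 14171. Genes of 1 library share its depth and preparation and are no independent replicates. Of 19 subunits with principal transcripts under 1000 nt, 12 fell in homozygous hearts and none rose (median -0.70). Of 16 longer ones 6 fell and Ndufs1 rose (median -0.39). By median-length transcript, 15 of 26 under 1000 nt fell (median -0.70), and 3 of 9 longer ones fell (median -0.27). Among all genes of any length, 12.4% fell and 15.3% rose, and all genes were not split by length.

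The fit was repeated with an offset for each gene and library that removes smooth trends with the length of the transcript, the length of its 3' UTR and its GC content (the gene property correction). After it, 3 subunits fell in homozygous hearts (Ndufab1, Ndufb2 and Ndufc1) and Ndufs1 rose, with a median of -0.12, where 4.85% of all genes fell and 9.79% rose (14.6% in either direction). In heterozygous hearts 5 fell (these with Ndufa8 and Ndufb3) and Ndufs1 rose, with a median of -0.18, where 4.66% of all genes fell and 9.09% rose (13.8% in either direction). Across the 45 complex I genes, principal transcript length and these corrected fold changes had a Spearman rho of 0.05 in homozygous and 0.04 in heterozygous hearts. With the length of the median-length transcript the rho was still 0.36 and 0.29. The principal transcripts of Ndufb2, Ndufab1 and Ndufc1 are long beside their other transcripts. With the median-length transcript of each gene, an alternative added after the first was seen, Ndufb3 and Ndufc1 fell in homozygous hearts and Ndufa8, Ndufb3 and Ndufc1 in heterozygous hearts, with medians of -0.22 and -0.28, and Ndufs1 rose in both. Of all genes tested, 5.6% fell and 11.3% rose in homozygous hearts under that setting (16.9% in either direction), and 5.31% fell and 10.3% rose in heterozygous hearts (15.6% in either direction).

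Corrected in the same way, the summed subunit level was 14558 and 17696 CPM in wild type, 14746, 13375 and 13576 CPM in heterozygous and 14706, 14275 and 15042 CPM in homozygous hearts. Wild type 1 then lay within the range of the deletion libraries and wild type 2 above them. The log2 fold change of Ndufs1 was then 0.72 with both alleles deleted (adjusted p = 0.0053) and 0.59 with 1 deleted (adjusted p = 0.0124). Ndufs7, in contrast, was at -0.14 and -0.29 (adjusted p = 0.45 and 0.124), Ndufa11 at -0.15 and -0.17 (adjusted p = 0.444 and 0.392) and Ndufaf4 at -0.09 and 0.00. With the correction and without wild type 2, the median over the subunits was 0.03 in homozygous and -0.02 in heterozygous hearts. Whether the trend with gene properties came from the animals or from the libraries was not tested.

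**Figure D3:**
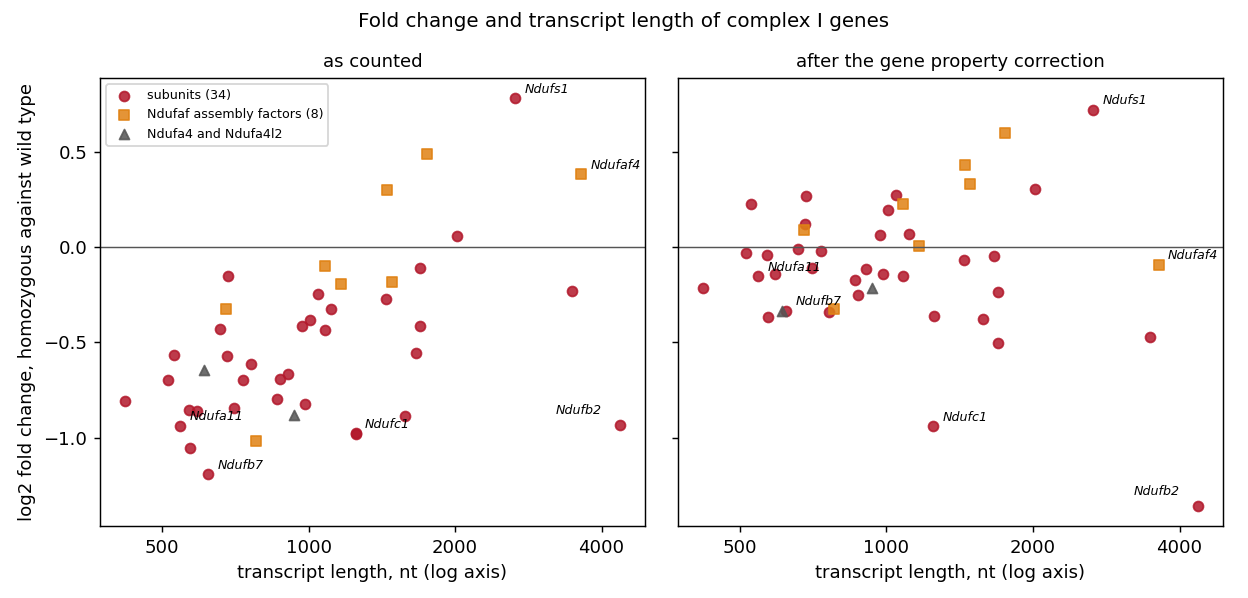
Log2 fold changes of the complex I genes reported singly in homozygous hearts against wild type, plotted against the length of the principal transcript on a log axis, as counted (left) and after the gene property correction (right); circles are subunits, squares Ndufaf genes and triangles Ndufa4 and Ndufa4l2. As counted, most short genes lie between -0.4 and -1.2; after the correction most points lie closer to 0, with Ndufs1 still high and Ndufb2 and Ndufc1 still low.

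**Figure D4:**
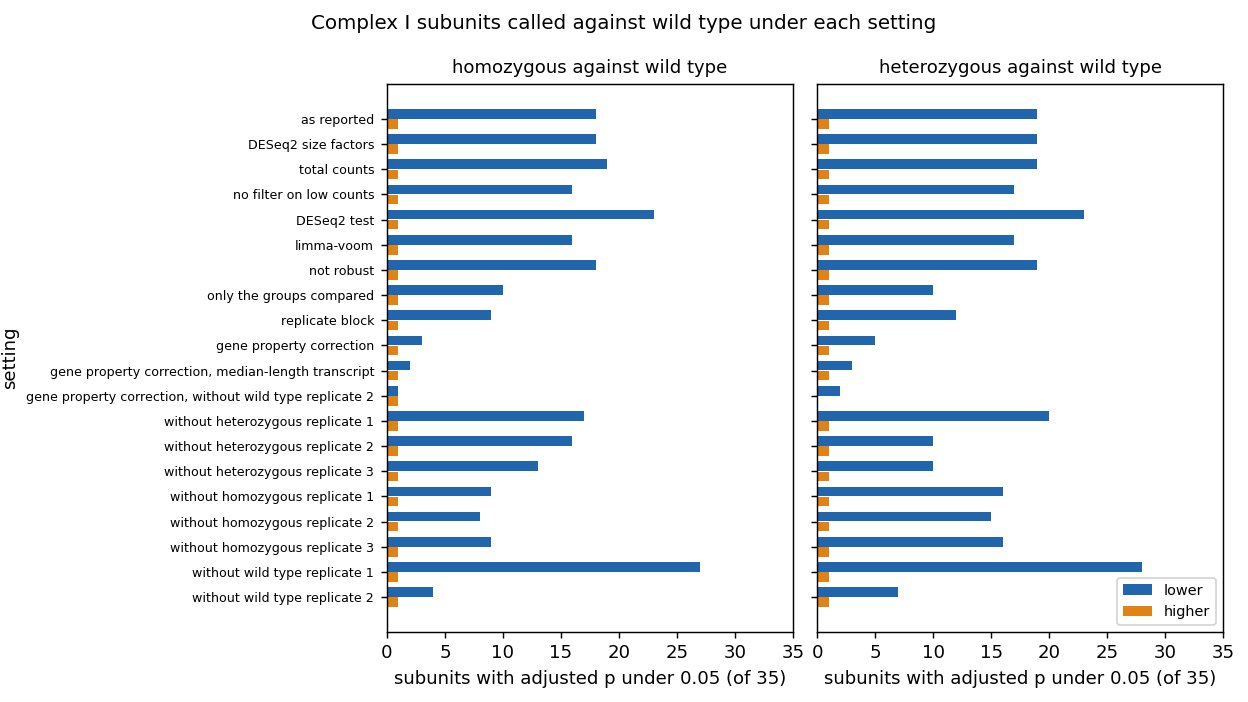
Number of the 35 subunits that fell (blue) or rose (orange) against wild type under each setting, for homozygous (left) and heterozygous hearts (right). The share of all genes called also differed between settings and is not drawn. The number that fell ranges from 1 to 27 in homozygous and from 2 to 28 in heterozygous hearts, while 1 subunit rose in every setting for homozygous hearts and in all but 1 for heterozygous hearts.

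Of 43 genes of complexes II to V tested, 22 fell and 2 rose in homozygous and 21 fell and 2 rose in heterozygous hearts, with medians of -0.58 and -0.56, and wild type 2 was above wild type 1 for 38 of them (median ratio 1.44). Among all genes, 12.4% fell and 15.3% rose in homozygous hearts, and 12.8% fell and 15.2% rose in heterozygous hearts. By complex, in homozygous hearts 0 of 4 fell in complex II, 6 of 9 in complex III, 11 of 14 in complex IV and 5 of 16 in complex V. Without wild type 2 the medians of the 43 were -0.21 in homozygous and -0.18 in heterozygous hearts. After the gene property correction the medians of the 43 were -0.04 and -0.08. Then 2 fell and 4 rose in homozygous hearts, where 4.85% of all genes fell and 9.79% rose. In heterozygous hearts 4 fell and 3 rose, where 4.66% of all genes fell and 9.09% rose. No difference between complex I and these 43 genes was tested.

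Sdha, the flavoprotein of complex II, was at 1221 and 912 CPM in wild type, 1294, 1721 and 1324 CPM in heterozygous and 1709.5, 1394 and 1663 CPM in homozygous hearts. It rose by 0.57 in homozygous hearts (SE 0.19, adjusted p = 0.043), where the heterozygous value of 0.44 did not pass the test (adjusted p = 0.104). The homozygous value without wild type 2, 0.41, did not pass it either (adjusted p = 0.193). The genes with the smallest p of their complex in homozygous hearts were Atp5d of ATP synthase, at -0.97 (SE 0.16, adjusted p = 0.00259), Cox4i2 of complex IV, at -0.95 (SE 0.16, adjusted p = 0.00276), and Uqcrc1 of complex III, at -0.69 (SE 0.15, adjusted p = 0.00738). Leaving out wild type 2 gave -0.65, -0.82 and -0.56 (adjusted p = 0.0114, 0.0189 and 0.0393). After the gene property correction none of these 3 passed the test in homozygous hearts: Atp5d was at -0.35 (adjusted p = 0.0963), Cox4i2 at -0.24 (adjusted p = 0.379) and Uqcrc1 at -0.16 (adjusted p = 0.465).

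Of 7 tested dehydrogenase genes outside the complexes that pass electrons to ubiquinone or share the NADH pool, Etfb fell and Etfa and Etfdh rose in homozygous hearts. Among all genes, 12.4% fell and 15.3% rose there. Etfa and Etfb form the electron-transferring flavoprotein of fatty acid oxidation, and their log2 fold changes were 0.60 (SE 0.15, adjusted p = 0.0134) and -0.97 (SE 0.20, adjusted p = 0.00626). Etfdh, its ubiquinone oxidoreductase, was at 0.68 (SE 0.16, adjusted p = 0.00976). Etfb without wild type 2 was at -0.49 (adjusted p = 0.0414), Etfdh at 0.59 (adjusted p = 0.0407) and Etfa at 0.46, which did not pass the test (adjusted p = 0.0535). After the gene property correction Etfb, at -0.29, did not pass it (adjusted p = 0.195), while Etfa at 0.69 and Etfdh at 0.73 did (adjusted p = 0.0128 and 0.00842).

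Of 14 regulators of respiratory gene transcription, 7 rose and none fell in either genotype. Among all genes, 15.3% rose and 12.4% fell in homozygous hearts, and 15.2% rose and 12.8% fell in heterozygous hearts. Esrrg, an estrogen-related receptor active in heart muscle, was at 26.9 and 26.6 CPM in wild type, 61.1, 77.6 and 72.6 CPM in heterozygous and 67.8, 65.4 and 76.0 CPM in homozygous hearts. The wild-type libraries were alike and all 6 deletion libraries far above them, with log2 fold changes of 1.38 in homozygous (SE 0.14, adjusted p = 0.000237) and 1.40 in heterozygous hearts (SE 0.14, adjusted p = 2e-04). Esrrb rose by 0.97 (SE 0.14, adjusted p = 0.00102) and Gabpa, which binds the ETS motif, by 0.81 (SE 0.13, adjusted p = 0.00224) in homozygous hearts. Without wild type 2 the homozygous log2 fold changes of the 7 lay between 0.28 for Yy1 and 1.41 for Esrrg. With it these 2 were at 0.43 and 1.38. After the gene property correction 5 of the 14 rose in homozygous hearts, where 9.79% of all genes rose. These were Esrrg, Esrrb, Tfb2m, Ppargc1b and Esrra. Esrra was not among the 7, with -0.04 before the correction and 0.42 after it (adjusted p = 0.0425). Esrrg was then at 0.86 (adjusted p = 0.00297), Esrrb at 1.10 (adjusted p = 0.000986) and Gabpa at 0.28 (adjusted p = 0.124). Nrf1, the factor that binds the NRF1 core, was chosen for mention after its value was seen and was at -0.17 in homozygous hearts (SE 0.18, adjusted p = 0.513).

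Lists of marker genes for the cell types of the heart were read in the same way. Counts below stand beside shares over all genes of 12.4% that fell and 15.3% that rose in homozygous hearts. In heterozygous hearts these shares were 12.8% and 15.2%. The summed level of 9 cardiomyocyte markers was 84162 and 96515 CPM in wild type, 75367 to 78635 CPM in heterozygous and 74839 to 82312 CPM in homozygous hearts; 2 fell and 3 rose in homozygous hearts. Of 5 atrial markers 4 fell in either genotype, with a summed level of 327 and 584 CPM in wild type, 98.8 to 421 CPM in heterozygous and 107 to 366 CPM in homozygous hearts. Brown adipocyte markers summed to 607 and 1309 CPM in wild type, 454 to 665 CPM in heterozygous and 518 to 649 CPM in homozygous hearts. Wild type 2 was highest. Most of each sum was Cox8b, a gene of complex IV that heart cells also express. Cox8b alone was at 542 and 1214 CPM in wild type, 413 to 609 CPM in heterozygous and 469 to 601 CPM in homozygous hearts. The defining brown adipocyte gene Ucp1 was at 0 in wild type 1, 0.347 CPM in wild type 2 and at most 0.0174 CPM in the deletion libraries. White adipocyte markers summed to 1.35 and 15.1 CPM in wild type and to at most 0.733 CPM in the deletion libraries. Of 6 endothelial markers 1 fell in either genotype, with sums of 1957 and 2263 CPM in wild type and 1365 to 1885 CPM in the deletion libraries. Of 6 macrophage markers 2 fell and 2 rose in homozygous hearts and 1 fell and 2 rose in heterozygous hearts. No tested fibroblast, erythroid or skeletal muscle marker passed the test, and 4 globin genes were at 0 in every library. The wild type 1 sums of the atrial and brown adipocyte lists lay within the range of the deletion libraries. The atrial marker Myl7, taken singly, was at 6.59 and 14.2 CPM in wild type and at 0.177 to 0.684 CPM in the deletion libraries. Its log2 fold changes were -5.23 in homozygous and -4.36 in heterozygous hearts, and both wild-type libraries were above every deletion library. The part of these cells in the level of the complex I subunits was not tested.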

How the data were processed

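The authors deposited raw counts per gene symbol for 8 libraries of mouse heart RNA. The submitters' processing notes name Trimmomatic 0.36 and HISAT2 among the tools, together with Subread, featureCounts, DESeq2 and the mm10 build. No source used here gives the annotation, the strand setting or the handling of reads with several matches. Symbols were matched to GENCODE vM21 (98.5% found, all 46 members). Genes were filtered by filterByExpr and scaled by TMM in edgeR 4.0.16 (R 4.3.3). A shared spread was estimated over the 3 genotypes in a robust quasi-likelihood model of 15075 genes with genotype as its factor, because wild type has 2 libraries, with Benjamini-Hochberg adjustment over all genes and a threshold of 0.05. The script was tested on simulated counts with 200 genes changed. The gene property correction used splines of 4 degrees of freedom. Alternatives included DESeq2 1.42.0 and limma 3.58.1 (voom). Members, role lists and marker lists were chosen with earlier results of these data known. Values of 1 member, which stays in the fit and in the counts, are not reported here. Named genes are the other core subunits, the 2 smallest and the largest p of each other role, every Ndufaf gene, and up to 3 genes of other lists.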

Additional observations from a re-analysis of the deposited data

How the results depend on the processing

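No subunit and no Ndufaf gene was called between homozygous and heterozygous hearts under any setting run, so the alternatives bear on the comparisons with wild type. Scaling by DESeq2 size factors or total counts, no filter on low counts, the DESeq2 test, limma-voom and a fit that was not robust kept the number of subunits called within 1.5 times of 19 and 20, and the number of Ndufaf genes within 1.5 times of 2 and 3, except that total counts gave 1 Ndufaf gene in homozygous hearts. Fitting only the groups compared gave 11 subunits in either genotype, with 1 Ndufaf gene in homozygous and 0 in heterozygous hearts, where 22.6% and 18% of all genes were called. Leaving out 1 library gave 5 to 28 subunits and 1 to 3 Ndufaf genes in homozygous hearts, with a subunit median of -0.90 to -0.21, and 8 to 29 subunits and 0 to 3 Ndufaf genes in heterozygous hearts, with a median of -0.92 to -0.21. The gene property correction gave 4 subunits and 1 Ndufaf gene in homozygous hearts (median -0.12), where 14.6% of all genes were called. In heterozygous hearts it gave 6 and 1 (median -0.18), where 13.8% were called. With the median-length transcript it gave 3 and 0 (median -0.22), then 4 and 0 (median -0.28), where 16.9% and 15.6% were called. With the correction and without wild type 2 the subunit medians were 0.0345 in homozygous and -0.0223 in heterozygous hearts. The cause of these shifts was not tested.

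Whether the replicate numbers pair the samples could not be told. Deviations of same-numbered heterozygous and homozygous libraries correlated at 0.178, 0.139 and -0.0228. Heterozygous 1 and heterozygous 2 correlated best with the homozygous library of the same number, and heterozygous 3 with homozygous 2 (0.135). With the replicate number as a block, 10 subunits and 1 Ndufaf gene were called in homozygous hearts and 13 subunits in heterozygous hearts, where 22.1% and 22.4% of all genes were called.

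Of 1064 values of single genes under the alternatives, 890 kept direction and side of the threshold, 102 lost the call, 18 gained it and 54 turned direction. With the gene property correction the log2 fold changes that turned were in homozygous hearts Ndufs3 0.27, Ndufs8 0.20, Ndufa12 0.0680, Ndufaf5 0.0058, Ndufaf6 0.22, Ndufaf4 -0.0937, Ndufaf3 0.33 and Ndufaf2 0.0912, and in heterozygous hearts Ndufs3 0.19, Ndufs8 0.22, Ndufa12 0.0746, Ndufa10 0.10, Ndufaf5 0.0193, Ndufaf6 0.23, Ndufaf3 0.41 and Ndufaf2 0.0274. With the median-length transcript they were in homozygous hearts Ndufs3 0.16, Ndufs8 0.19, Ndufa12 0.0266, Ndufaf6 0.0904, Ndufaf4 -0.16 and Ndufaf3 0.26, and in heterozygous hearts Ndufs3 0.0681, Ndufs8 0.22, Ndufa10 0.0333, Ndufaf6 0.0951, Ndufaf4 -0.0481 and Ndufaf3 0.34. With the correction and without wild type 2 they were in homozygous hearts Ndufs3 0.20, Ndufs8 0.22, Ndufv1 0.0221, Ndufa12 0.0848, Ndufa5 0.19, Ndufaf6 0.13, Ndufaf3 0.49 and Ndufaf2 0.29, and in heterozygous hearts Ndufs3 0.11, Ndufs8 0.24, Ndufa12 0.0901, Ndufa5 0.15, Ndufa10 0.0364, Ndufaf6 0.14, Ndufaf3 0.56, Ndufaf8 0.14 and Ndufaf2 0.22. Leaving out 1 library turned the direction of some values, which then ranged from -0.26 to 0.0956 for Ndufv2 in homozygous hearts, -1.14 to 0.0037 for Ndufa5 in homozygous hearts, -0.39 to 0.10 for Ndufaf3 in homozygous hearts, -0.69 to 0.21 for Ndufaf2 in homozygous hearts, -0.19 to 0.17 for Ndufv2 in heterozygous hearts, -0.0637 to 0.0012 for Ndufaf6 in heterozygous hearts, -0.32 to 0.17 for Ndufaf3 in heterozygous hearts and -0.68 to 0.21 for Ndufaf2 in heterozygous hearts.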
